A study of Mus musculus with 20 samples.

Results

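Junction genes of malignant mesothelioma (MM) cells, namely the claudins, the other core tight junction genes and the desmosome genes, were followed across 7 mouse MM lines grown as organoids (3D) and on plastic (2D). The set was taken by gene symbol from the deposited table: 22 claudins, the occludin family genes Ocln, Marveld2 and Marveld3, the junctional adhesion molecule F11r, 4 tight junction plaque genes with Tjp1, Tjp3 and Cgn among them, 9 desmogleins and desmocollins, and the desmosomal plaque genes Dsp, Jup, Pkp1, Pkp2, Pkp3 and Pkp4. These are 45 of the 21884 genes in the table. RNA of each line was sequenced once per culture, which gave 7 libraries of MM organoids and 7 libraries of 2D MM cell lines.

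The mice were of the C57/BL6 strain and each line came from the tumour, or for m67 from the ascites, of 1 mouse after intraperitoneal injection of a fibre. The fibre was crocidolite, except for m107, which came from a p53+/- mouse injected with a carbon nanotube. The crocidolite mice were p53+/- (m5, m12, m28, m54, m60) or wild type (m67). Organoids were grown in Matrigel with EGF, R-spondin1, Noggin and the ROCK inhibitor Y-27632. The labels give 10% FBS for organoids and 2D lines alike, whereas the paper describes the organoid medium as free of serum, so that a difference in medium and a difference between 3D and 2D growth cannot be told apart. Values are CPM, in which a gene's reads are scaled to a common library total, and the libraries held 11134018 to 53911770 reads. At these depths a count of 0 reads allows up to 0.0556 CPM in the deepest library and 0.269 CPM in the shallowest, counting error only.

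Tight junctions close the gap between neighbouring epithelial cells. Claudins span the membrane and build the strands, some of them sealing the gap and others, such as Cldn2 and Cldn15, forming pores for small cations, while plaque proteins such as ZO-1 (Tjp1), ZO-3 (Tjp3) and cingulin (Cgn) tie the strands to actin beneath the membrane. Desmosomes are spot-like anchors in which desmogleins and desmocollins bind between cells, plakoglobin (Jup) and plakophilins (Pkp) bind their tails, and desmoplakin (Dsp) fastens the plaque to keratin or vimentin filaments. The mesothelium, a single cell layer with traits of epithelium and of mesenchyme, carries both kinds of junction.

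A few libraries stood apart and bear on what follows. In 3D m12 the 13 markers of gut or duct epithelium summed to 3761 CPM, with no other library above 222 CPM, and 11 of the 13 were highest there. Of the 12 mesothelial markers, 5 were highest in 3D m12, namely Msln, Krt7, Krt8, Krt18 and Krt19. Wt1 stood there at 0.0371 CPM, against at least 53.6 CPM elsewhere, and Upk3b at 1.06 CPM, against at least 78.4 CPM. Upk1b and Gpm6a stood at 0 CPM there, against at least 7.24 and 16.3 CPM elsewhere. In the paper's histology, the tumours of m12 and m60 are listed as negative for WT1 and mesothelin (Msln). Of the organoids it describes, m12 alone showed a budding pattern. The 10 mesenchymal markers summed to 134 CPM in 3D m12, against at least 7308 CPM elsewhere, with Zeb2, Snai2 and Twist1 at 0 reads. In 3D m67 the 7 macrophage markers summed to 1994 CPM, and no other library exceeded 47.4 CPM. Reads of 4 Y-linked genes numbered 0 in the organoid and 12572 in the 2D library of m5. For m12 they numbered 10773 in the organoid and 0 in the 2D library, so in these lines the paired libraries did not match in this respect. Comparisons of the cultures are therefore given with and without m12, and without m5 and m12 where this matters. In bulk RNA, fewer cells of a type and less RNA per cell cannot be told apart.

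Junction genes were concentrated in 1 organoid library. At 1 CPM or more there were 24 of the 45 genes in 3D m12, of which 23 reached 10 CPM, and 10 to 16 of the 45 in each of the other libraries. Of the 24 genes that reached 10 CPM anywhere, 19 had their highest value in 3D m12 and 9 reached 10 CPM only there. These 9 entered the 24 through 3D m12 alone. For all genes of the table, those at 1 CPM per library and those at 10 CPM only in 3D m12 were not counted. Among all 11854 genes of the table that reached 10 CPM, 17.4% had their highest value in 3D m12. The 45 genes together summed to 4978 CPM in 3D m12 and to 561 to 2421 CPM in the other 13 libraries, the upper end being 2D m107. At the other extreme, 17 of the 45 stayed under 1 CPM in every library and 4 of these, Cldn5, Cldn13, Cldn24 and Dsg1c, had no read at all.

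**Figure D1:**
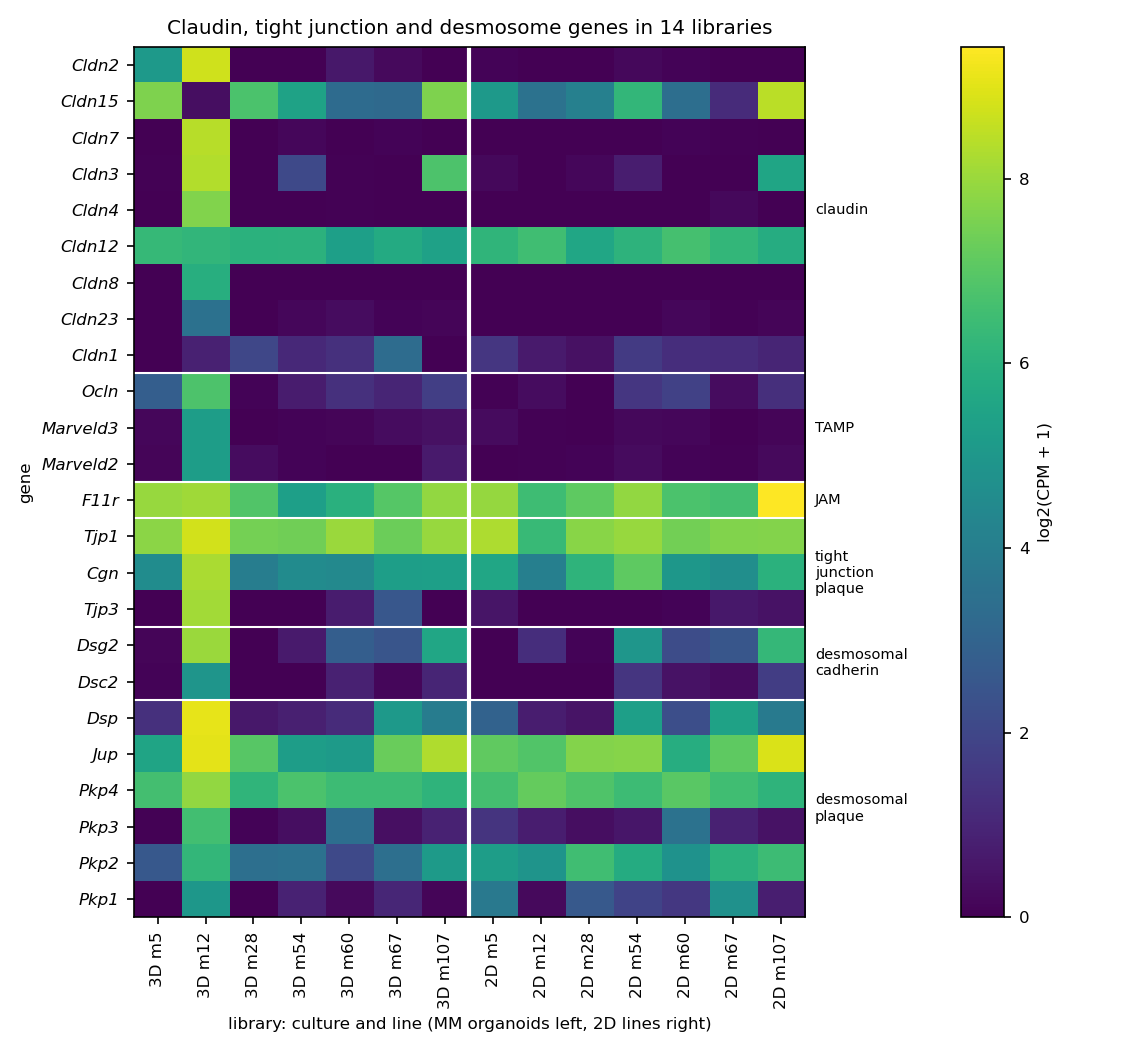
Heat map of 24 genes that were tested or reached 10 CPM, one row per gene and one column per library (MM organoids left of the white line, 2D MM cell lines right), coloured by log2(CPM + 1). The column of 3D m12 is bright through nearly all rows except Cldn15 and Cldn1, while Cldn12, F11r, Tjp1, Jup and Pkp4 are bright in all 14 columns.

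Outside 3D m12 the claudins of MM cells were chiefly Cldn15 and Cldn12. Cldn15 forms cation pores in the gut. In human mesothelioma its transcript is set against that of VIM to place tumours between epithelioid and sarcomatoid. The paper lists the tumours of m5, m12 and m60 as biphasic, those of m28, m54 and m107 as sarcomatoid, and m67 as not determined. Whether Cldn15 followed these subtypes was not tested. In MM organoids Cldn15 stood at 194 CPM in m5, 0.278 in m12, 106 in m28, 41.7 in m54, 8.76 in m60, 8.28 in m67 and 194 in m107. In 2D MM cell lines it stood at 33.5 CPM in m5, 10.9 in m12, 16.3 in m28, 73.9 in m54, 9.70 in m60, 1.25 in m67 and 348 in m107. The gene thus spanned a wide range in each culture, with m107 high in both and m67 low in both, and the cultures overlapped. Organoids were higher in m5, m28 and m67 and lower in the other 4 lines. Across the 7 lines limma gave a log2 fold change of 0.31 (SE 0.70, 95% interval -1.27 to 1.90, adjusted p = 0.811), on the log2(CPM + 1) scale that holds for all limma fold changes here and that understates the change of low genes. Its sign was negative without m5 (-0.054) and without m28 (-0.076).

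Cldn12, a claudin with no PDZ-binding tail, was the steadiest of the family. It ranged over 39.4 to 79.6 CPM in MM organoids (median 64.1) and 47.2 to 98.7 CPM in 2D MM cell lines (median 70.4). The ranges overlapped and 3D m12, at 73.0 CPM, lay among the others. The log2 fold change was -0.29 (95% interval -0.74 to 0.17, adjusted p = 0.399 by limma). Cldn1, a sealing claudin of skin and liver, was low throughout, at 0 to 9.06 CPM in MM organoids (median 1.11) and 0.333 to 2.01 CPM in 2D MM cell lines (median 1.30). Its highest value was in 3D m67, the library with the macrophage markers, whose part in this value was not tested. For Cldn1 the log2 fold change was 0.14 (95% interval -0.88 to 1.17, adjusted p = 0.872 by limma), and the sign turned under several alternatives.

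The claudins found in 3D m12 were those of simple and secretory epithelia, and most were at or near 0 elsewhere. Cldn7, a basolateral claudin of gut and duct epithelium, stood at 338 CPM in 3D m12 on 18237 reads, while the other 13 libraries held 7 reads in all. Cldn4, a sealing claudin of the gut and kidney, stood at 197 CPM in 3D m12 on 10594 reads, while the other 13 libraries held 5 reads. Cldn8, which partners Cldn4 in the collecting duct of the kidney, stood at 59.1 CPM in 3D m12 and had 0 reads in the other 13 libraries. Against the 0.269 CPM that 0 reads allow in the shallowest library, Cldn8 was at least 219-fold higher in 3D m12. Cldn23, a claudin of the gut, reached 10.5 CPM in 3D m12 and at most 0.241 CPM elsewhere.

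Cldn2 and Cldn3 were not restricted to 3D m12. Cldn2, the pore-forming claudin of leaky epithelia such as the proximal tubule, stood at 431 CPM in 3D m12 and 33.8 CPM in 3D m5, against at most 0.530 CPM in the remaining organoids and at most 0.139 CPM in 2D MM cell lines. The library labelled 2D m5 had 0.0792 CPM, so the presence of Cldn2 in m5 was a matter of the organoid library. Cldn3, a sealing claudin of many epithelia, stood at 321 CPM in 3D m12, 110 CPM in 3D m107 and 3.26 CPM in 3D m54, against 45.7 CPM in 2D m107, 0.693 CPM in 2D m54 and at most 0.158 CPM in the remaining 2D lines. Line m107 therefore carried Cldn3 in both cultures, and m54 was second to it among the 2D lines. Cldn10, which forms ion pores in kidney and exocrine glands, stood at 9.35 CPM in 3D m107, 8.09 CPM in 3D m60, 2.76 CPM in 3D m5 and 1.24 to 1.39 CPM in 3D m54 and m28, against 8.35 CPM in 2D m107 and at most 0.139 CPM in the other 2D lines. Cldn10 thus reached 1 CPM in both cultures of m107 only, and it was not among the genes tested because fewer than 7 libraries reached 1 CPM. In the fit with no filter on low values its log2 fold change was 1.03 (95% interval 0.12 to 1.94, adjusted p = 0.219 by limma).

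The neighbours Cldn3 and Cldn4 differed in m107. Cldn4, Cldn3 and the silent Cldn13 lie close together on mouse chromosome 5 (GRCm39), Cldn4 at 134973973 to 134975788 on the minus strand and Cldn3 at 135015068 to 135016326 on the plus strand. Both were high in 3D m12, whereas in m107 Cldn3 stood at 110 CPM in 3D and 45.7 CPM in 2D with Cldn4 at 0 reads in both libraries. The remaining 12 claudins, Cldn5, Cldn6, Cldn9, Cldn11, Cldn13, Cldn14, Cldn16, Cldn17, Cldn18, Cldn19, Cldn22 and Cldn24, never exceeded 0.363 CPM, the value of Cldn11 in 3D m67. They include Cldn5, the endothelial claudin, and Cldn18, a claudin of lung and stomach with at most 0.315 CPM.

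Levels of different claudins were compared per kilobase of merged exon. Cldn15 or Cldn12 led in 13 of the 14 libraries on that scale. In 3D m12 the order was Cldn3 with 37.1% of the summed claudin CPM per kilobase, Cldn7 with 23.3% and Cldn2 with 18.2%, and the sum was 687 CPM per kilobase. In m107 Cldn15 led with 48.5% in 3D and 78.1% in 2D, followed by Cldn3 with 47.6% in 3D and 17.7% in 2D, and the sums were 183 CPM per kilobase in 3D and 205 in 2D. In m60 Cldn10 contributed 23.6% in 3D, where Cldn15 gave 35.4% and Cldn12 33.9%. The lowest sum, 8.40 CPM per kilobase in 2D m67, was 87.7% Cldn12.

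**Figure D2:**
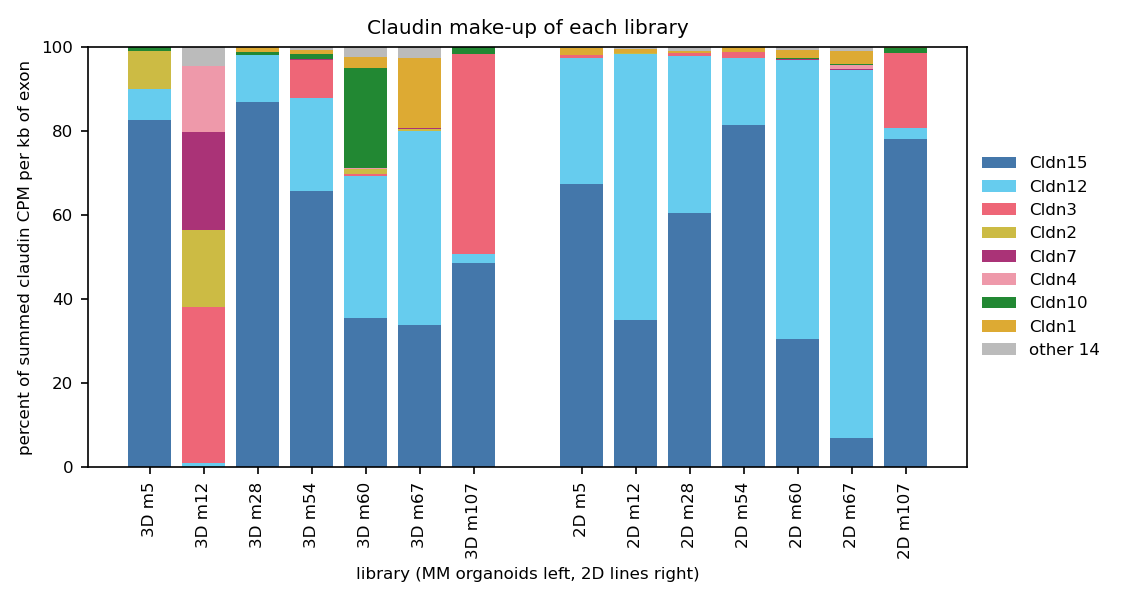
Stacked bars of the share of each claudin in the summed claudin CPM per kilobase of exon, in percent, for 7 MM organoids (left) and 7 2D MM cell lines (right). Cldn15 and Cldn12 fill most of each bar except 3D m12, where Cldn3, Cldn7, Cldn2 and Cldn4 do, and 3D m107, where Cldn3 takes 47.6%.

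Promoter sequence was described for the genes that were high in 3D m12. That library had no reads of Zeb2, Snai2 and Twist1, and Zeb1 and Snai1 stood there at 0.0556 and 0.0371 CPM. Snai3, a low gene of the SNAIL family, was not reduced. It stood at 2.02 CPM in 3D m12, against a median of 0.193 CPM and at most 2.18 CPM elsewhere. Repressors of the ZEB and SNAIL families are known to bind the E-box CACCTG in front of epithelial genes such as the E-cadherin gene. RefSeq windows of 300 bases (250 before a transcript start and 50 after it, build GRCm38.p6) were at hand for 27 of the 45 genes. Among the 12 of these genes that were highest in 3D m12, 11 of 17 windows held CACCTG or its reverse complement CAGGTG (8 of 12 genes: Cldn3, Cldn4, Cldn7, Dsp, Marveld2, Ocln, Pkp4 and Tjp3), and 20.2% of all 32851 windows did. Several windows of 1 gene overlap and are not independent. The same site was counted in more than 1 window for Ocln and for Marveld2. The looser E-box CANNTG, which includes CACCTG, was in 72.3% of all windows, and the Grainyhead-like motif AACCNGTT was in 2.09% of all windows and, of these 12 genes, in Cgn alone. A match of letters is a description of the window and not a binding site. The 12 genes were picked by their values in 3D m12. The share of all genes with a match, rather than of all windows, was not counted. Any part of ZEB and SNAIL repressors in the junction values was not tested.

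The 250 bases before the start are printed for Cldn4, Cldn7 and Ocln, whose values were highest in 3D m12, and for Cldn15, whose value was lowest there. Capitals mark CACCTG or CAGGTG, read 5′ to 3′ along the strand of the gene. The windows are chr5:134946935-134947184 (minus strand) for Cldn4, chr11:69965171-69965420 (plus strand) for Cldn7, chr13:100552499-100552748 (minus strand) for Ocln and chr5:136967619-136967868 (plus strand) for Cldn15, all in GRCm38.p6.
Cldn4: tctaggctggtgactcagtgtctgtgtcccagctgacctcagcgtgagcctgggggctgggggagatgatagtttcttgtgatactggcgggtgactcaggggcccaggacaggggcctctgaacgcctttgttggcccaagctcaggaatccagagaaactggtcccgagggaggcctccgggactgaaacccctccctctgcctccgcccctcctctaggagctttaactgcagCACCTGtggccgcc
Cldn7: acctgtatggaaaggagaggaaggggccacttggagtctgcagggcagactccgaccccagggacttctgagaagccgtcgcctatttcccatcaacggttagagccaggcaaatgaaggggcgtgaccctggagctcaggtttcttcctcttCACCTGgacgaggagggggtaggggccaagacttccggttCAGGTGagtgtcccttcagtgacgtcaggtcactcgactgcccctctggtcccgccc
Ocln: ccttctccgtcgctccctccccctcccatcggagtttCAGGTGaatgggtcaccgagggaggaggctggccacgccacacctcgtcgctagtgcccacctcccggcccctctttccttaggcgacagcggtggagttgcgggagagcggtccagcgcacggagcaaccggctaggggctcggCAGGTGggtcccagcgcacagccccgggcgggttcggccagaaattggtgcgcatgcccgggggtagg
Cldn15: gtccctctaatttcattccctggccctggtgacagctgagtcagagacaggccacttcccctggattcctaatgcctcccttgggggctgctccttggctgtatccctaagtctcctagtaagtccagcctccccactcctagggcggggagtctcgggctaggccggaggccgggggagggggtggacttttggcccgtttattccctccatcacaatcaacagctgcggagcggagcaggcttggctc
In Cldn4 the capitals begin 14 bases before the start, in Cldn7 they begin 97 and 57 bases before it and in Ocln 213 and 68 bases before it. Cldn4 held a further match within the 50 bases after the start, which are not printed. The matches of Cldn3, Dsp and Marveld2 lay only in those 50 bases. That of the other, overlapping Ocln window is the same site as the printed one at 213 bases. The window of Cldn15 and the second window of Cldn7 held no match. Matches were also found among the other 15 genes with a window, in 3 of 22 windows, namely those of Cldn6 and Cldn14, both at 0 CPM in 3D m12, and of F11r, whose value was highest in 2D m107.

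Occludin and its relatives MARVELD2 (tricellulin) and MARVELD3 are membrane proteins of the tight junction, tricellulin being enriched at the corners where several cells meet. Marveld2 stood at 37.2 CPM in 3D m12 and at most 0.606 CPM in the other 13 libraries, and Marveld3 stood at 37.2 CPM in 3D m12 and at most 0.346 CPM elsewhere. Ocln stood at 109 CPM in 3D m12, 6.03 CPM in 3D m5 and 0.0770 to 2.34 CPM in the other organoids, against 0 to 2.54 CPM in 2D MM cell lines. Apart from 3D m12 and 3D m5 the organoids overlapped with the 2D lines. Ocln reached 1 CPM in 7 libraries, the fewest that allow a test, and 3D m12 was among them. Without that library the gene would not have been tested. For Ocln the log2 fold change was 1.31 over all 7 lines (95% interval -0.57 to 3.18, adjusted p = 0.349 by limma), 0.45 without m12 and -0.014 without m5 and m12.

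F11r encodes JAM-A, an immunoglobulin-type adhesion protein of tight junctions that epithelial, endothelial and blood cells share. It was well expressed in every library, at 38.9 to 273 CPM in MM organoids (median 123) and 90.4 to 688 CPM in 2D MM cell lines (median 137). The highest value was in 2D m107 and the cultures overlapped. Organoids were lower in 4 of 7 lines, with a log2 fold change of -0.44 (95% interval -1.43 to 0.54, adjusted p = 0.548 by limma).

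Of the plaque proteins beneath the tight junction, ZO-1 (Tjp1) also serves adherens junctions, while ZO-3 (Tjp3) and cingulin (Cgn) are more closely tied to epithelium. Tjp1 ranged over 160 to 444 CPM in MM organoids (median 218) and 81.6 to 308 CPM in 2D MM cell lines (median 203). Line m12 gave both the highest organoid value and the lowest 2D value, and the other lines overlapped. The log2 fold change of Tjp1 was 0.23 (95% interval -0.56 to 1.02, adjusted p = 0.702 by limma) and -0.13 without m12.

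Cgn stood at 296 CPM in 3D m12 and 14.8 to 39.0 CPM in the other 6 organoids, against 15.6 to 136 CPM in 2D MM cell lines (median 47.3). Outside m12 the cultures overlapped, with 2D lines at 24.2 CPM or more, and 5 of those 6 lines had less Cgn in 3D. The log2 fold change was -0.31 over 7 lines (95% interval -1.93 to 1.32, adjusted p = 0.817 by limma) and -1.05 without m12 (adjusted p = 0.125). Tjp3 stood at 279 CPM in 3D m12, 4.96 CPM in 3D m67 and 0.626 CPM in 3D m60, with 0 reads in the remaining organoids, against 0 to 0.530 CPM in 2D MM cell lines. Its second highest value, like the highest of Cldn1, was in the library with the macrophage markers, whose part was not tested.

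Desmosomal cadherins were sparse in these cells outside m12, m54 and m107. The 9 genes summed to 291 CPM in 3D m12, 48.0 CPM in 3D m107 and 0.0770 to 7.17 CPM in the other organoids, against 81.8 CPM in 2D m107, 32.9 CPM in 2D m54 and 0.0396 to 5.30 CPM in the other 2D lines. Where the sum was high most of it was Dsg2, the desmoglein of simple epithelium and heart. Dsg2 stood at 0.0804 CPM in m5, 259 in m12, 0 in m28, 0.587 in m54, 6.07 in m60, 4.59 in m67 and 46.7 in m107 in MM organoids. In 2D MM cell lines it stood at 0 CPM in m5, 1.37 in m12, 0.0666 in m28, 29.6 in m54, 3.61 in m60, 4.73 in m67 and 77.2 in m107. Lines m5 and m28 were near 0 in both cultures and m107 was high in both, while m54 was high in 2D alone and m12 in 3D alone. For Dsg2 the fold change was 0.34 on the log2 scale (SE 1.04, 95% interval -2.04 to 2.72, adjusted p = 0.868 by limma) and -0.73 without m12 (adjusted p = 0.446).

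Dsc2, the desmocollin that pairs with Dsg2 in simple epithelium, stood at 29.6 CPM in 3D m12 and at most 0.953 CPM in the other organoids, against 2.25 CPM in 2D m107, 1.73 CPM in 2D m54 and at most 0.380 CPM in the other 2D lines. The libraries with the most Dsc2 were those with the most Dsg2. Dsc3, a desmocollin of stratified epithelium, followed the 2D lines of this group and not 3D m12, with 2.34 CPM in 2D m107, 1.46 CPM in 2D m54 and 0 reads in 3D m12. Dsg3, a desmoglein of stratified epithelium, reached 1.98 CPM in 3D m12 and at most 0.145 CPM elsewhere. Dsc1, Dsg1a, Dsg1b, Dsg1c and Dsg4, which belong to skin and hair, never exceeded 0.185 CPM. The Dsg1 genes are near-identical copies, so reads between them are uncertain.

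Desmosomal plaque genes were expressed also in libraries with almost no desmosomal cadherin. The 6 plaque genes summed to 1505 CPM in 3D m12 and 135 to 432 CPM in the other organoids, against 230 to 639 CPM in 2D MM cell lines. In 3D m5 the plaque genes summed to 147 CPM with 0.188 CPM of desmosomal cadherins, and in 2D m5 to 295 CPM with 0.0396 CPM. Several plaque proteins have other partners: plakoglobin (Jup) also binds classical cadherins at adherens junctions, and p0071 (Pkp4) is found at adherens junctions and elsewhere in the cell.

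Jup stood at 526 CPM in 3D m12 and 34.2 to 313 CPM in the other organoids, against 57.7 to 469 CPM in 2D MM cell lines (median 140). The top of each range after 3D m12 was m107, and 5 of 7 lines had less Jup in 3D. The log2 fold change was -0.55 over 7 lines (95% interval -1.62 to 0.53, adjusted p = 0.492 by limma) and -1.0 without m12 (adjusted p = 0.0878). Pkp4 was the steadiest plaque gene, at 68.6 to 237 CPM in MM organoids (median 87.3) and 68.3 to 145 CPM in 2D MM cell lines (median 95.6). Its log2 fold change of -0.035 had the narrowest interval of the 14 genes (-0.43 to 0.36, adjusted p = 0.919 by limma), and per kilobase Pkp4 was the leading plakophilin in all 14 libraries.

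Dsp, the desmoplakin gene, spanned a wide range in each culture. It stood at 542 CPM in 3D m12, 32.4 CPM in 3D m67, 14.6 CPM in 3D m107 and 0.539 to 1.45 CPM in the other organoids. In 2D MM cell lines it stood at 41.7 CPM in m67, 38.7 in m54, 13.3 in m107, 6.73 in m5, 3.80 in m60, 0.684 in m12 and 0.400 in m28. Lines m67 and m107 were alike in both cultures, m28 was near 0 in both, and m54 was high in 2D only, as for Dsg2. For Dsp the fold change was 0.15 on the log2 scale (SE 1.25, 95% interval -2.71 to 3.00, adjusted p = 0.956 by limma), and without m12 it was -1.22 (adjusted p = 0.209).

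Pkp2, the plakophilin of simple epithelium and heart, gave the clearest difference between the cultures. In MM organoids it stood at 5.07 CPM in m5, 75.2 in m12, 9.78 in m28, 10.3 in m54, 3.18 in m60, 9.91 in m67 and 34.6 in m107. In 2D MM cell lines it stood at 37.5 CPM in m5, 28.4 in m12, 92.6 in m28, 54.5 in m54, 26.9 in m60, 66.1 in m67 and 87.3 in m107. Each line except m12 had less Pkp2 in 3D, and the lowest 2D value, in m60, was exceeded by the organoids of m12 and m107 alone. Means were 21.2 ± 26.0 CPM in MM organoids and 56.2 ± 27.0 CPM in 2D MM cell lines (SD, n = 7 lines each). Over 7 lines the log2 fold change was -1.91 (SE 0.50, 95% interval -3.06 to -0.76), with an unadjusted p of 0.00463 and an adjusted p of 0.0698 from limma, which missed the threshold.

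Without m12, Pkp2 was lower in 6 of 6 lines, at 12.1 ± 11.4 CPM in MM organoids and 60.8 ± 26.3 CPM in 2D MM cell lines (SD, n = 6 lines each), with differences of -3.12 to -1.31 on the log2 scale. The log2 fold change was then -2.46 (SE 0.24, 95% interval -3.00 to -1.92) and passed limma's test (adjusted p = 0.00547). It also passed without m5 and m12 (-2.42, adjusted p = 0.0106 by limma), and edgeR on the recovered reads gave -2.71 without m12 (adjusted p = 0.0122) and -2.65 without m5 and m12 (adjusted p = 0.0228). With all 7 lines edgeR gave -2.27 (adjusted p = 0.0891) and DESeq2 gave -2.27 (adjusted p = 0.000239). Leaving out any other single line gave adjusted p values of 0.0846 to 0.177 by limma. Over all 20 alternatives the adjusted p of Pkp2 ran from 0.000239 to 0.186 and its log2 fold change from -2.71 to -1.56, so the direction held in each.

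Pkp1, a plakophilin of stratified epithelium, went the same way at a lower level. In MM organoids it stood at 0 CPM in m5, 30.8 in m12, 0 in m28, 0.849 in m54, 0.193 in m60, 1.03 in m67 and 0.0866 in m107. In 2D MM cell lines it stood at 13.1 CPM in m5, 0.171 in m12, 5.13 in m28, 2.703 in m54, 1.90 in m60, 26.6 in m67 and 0.719 in m107. Outside m12 the organoid of each line was lower than its 2D library, and the ranges overlapped only between 0.719 and 1.03 CPM. The gene reached 1 CPM in 7 libraries, the fewest that the filter allows, and 3D m12 was among them. Pkp1 would not have been tested without that library, which the fits without m12 leave out. Over 7 lines the log2 fold change was -1.20 (SE 0.94, 95% interval -3.33 to 0.94, adjusted p = 0.448 by limma). Without m12 it was -2.19 (SE 0.48, 95% interval -3.30 to -1.08) and passed the test (adjusted p = 0.0397), while without m5 and m12 it was -1.87 and did not (adjusted p = 0.0789). By edgeR Pkp1 did not pass without m12 (adjusted p = 0.0653) or without m5 and m12 (adjusted p = 0.0644), whereas DESeq2 with all 7 lines called it (adjusted p = 0.0123). Over all its alternatives the adjusted p of Pkp1 ran from 0.0123 to 0.724.

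Pkp3, a plakophilin of most epithelia, was highest in m60 after 3D m12. It stood at 94.7 CPM in 3D m12, 9.73 CPM in 3D m60 and at most 0.866 CPM in the other organoids, against 10.8 CPM in 2D m60, 1.70 CPM in 2D m5 and at most 0.820 CPM in the other 2D lines. Its value in m60 was thus nearly the same in both cultures. Per kilobase the second plakophilin after Pkp4 was Pkp3 in both libraries of m60 and in 3D m12, Pkp1 in 2D m67 and Pkp2 in the other 10 libraries.

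**Figure D3:**
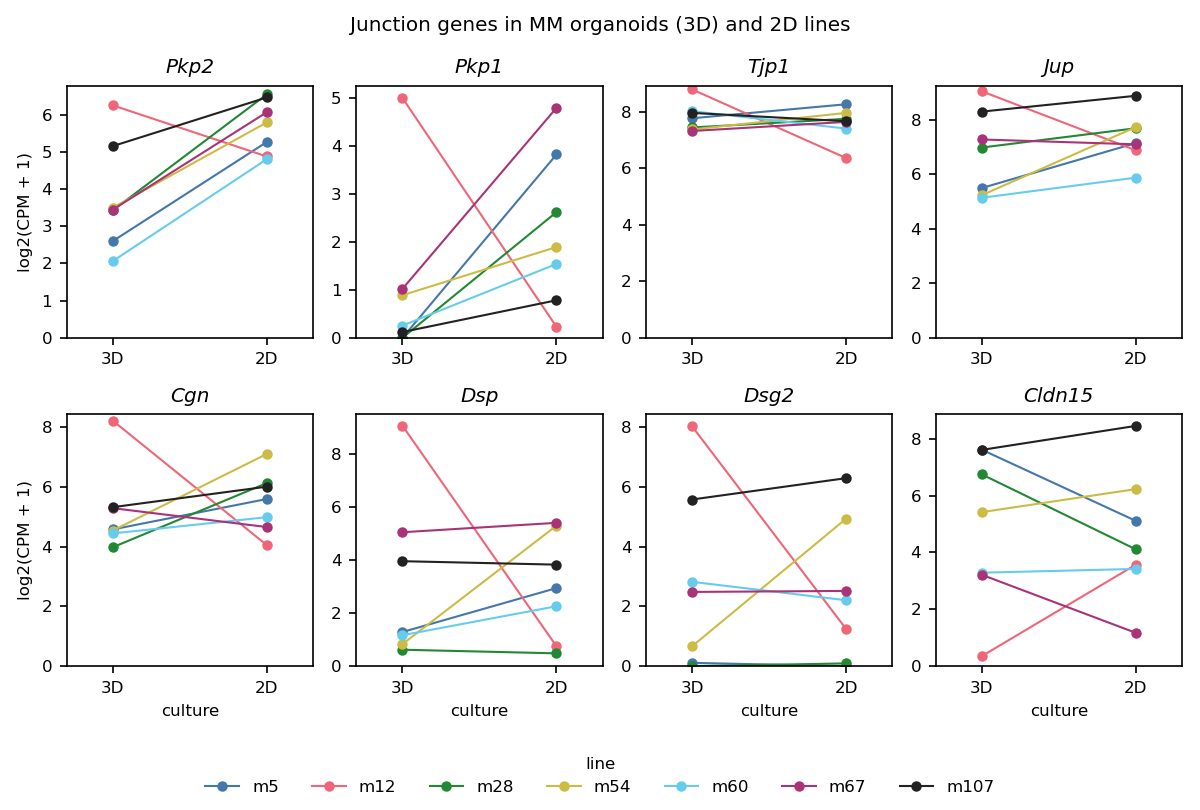
Values of 8 junction genes as log2(CPM + 1) in MM organoids (3D, left point) and the 2D library (right point) of each of 7 lines, joined by a line of the line's colour. For Pkp2 and Pkp1 the line m12 alone is higher in 3D and the other 6 are lower, while Dsg2 and Dsp spread widely in each culture.

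With all 7 lines, 0 of the 14 tested junction genes passed limma's test at an adjusted p under 0.05, and 1 (Pkp2) had an unadjusted p under 0.05, as did 25.2% of all genes. Of all 11677 genes tested, 2.1% were called higher in 3D and 1.18% lower. EdgeR called 0 of the 14, where it called 0.942% of all genes. DESeq2 called 2 of the 14, Pkp1 and Pkp2, both lower, where it called 16.2% of all genes in either direction and 7.48% lower. Leaving out m12 gave 2 of 14 called lower by limma, Pkp1 and Pkp2, where 2.25% of all genes were called lower, and 5 of the 14 had an unadjusted p under 0.05, as did 28.2% of all genes. Pkp1 and Ocln were among the 14 only through 3D m12, which that fit leaves out. Leaving out m5 and m12 gave 1 of 14, Pkp2, where 1.11% of all genes were called lower. The other 31 genes were not tested because fewer than 7 libraries reached 1 CPM, and 11 of these reached 10 CPM in at least 1 library. The lines came from separate mice, and with line as a term the p values measure the spread of the 3D to 2D difference across these lines. With 1 library per line and culture, the spread between repeat libraries of a line was not measured.

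**Figure D4:**
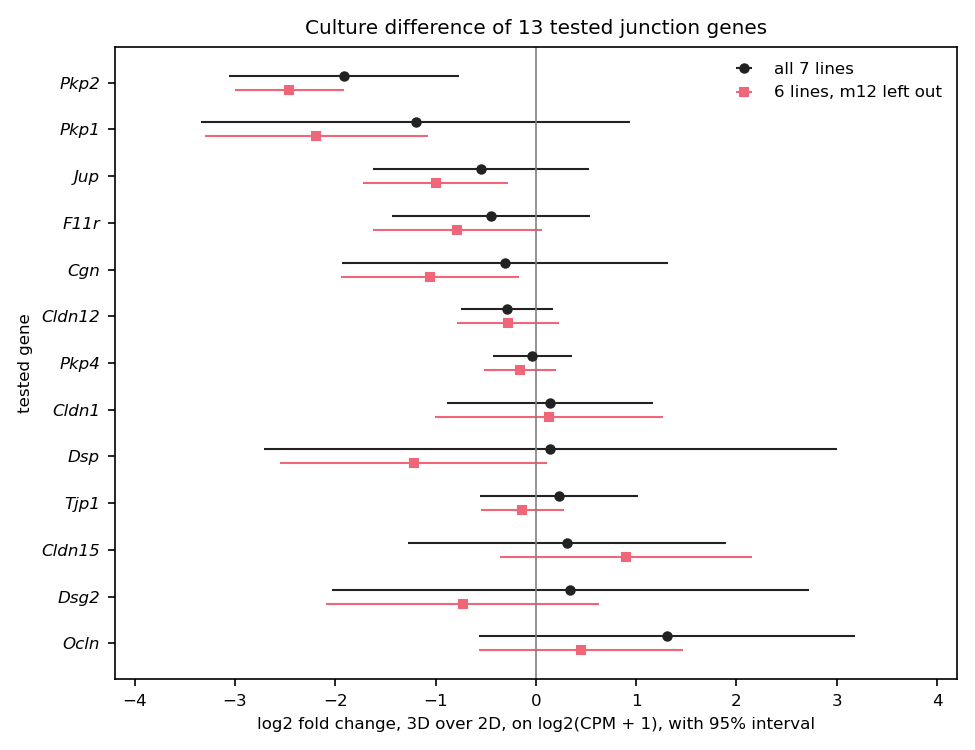
Log2 fold changes, 3D over 2D, of 13 tested junction genes on log2(CPM + 1) with 95% intervals from limma, over all 7 lines (black circles) and over the 6 lines other than m12 (red squares). With all lines only the interval of Pkp2 excludes 0, and the values of Dsp, Dsg2 and Tjp1 change sign when m12 is left out.

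The highest line was compared between the cultures, with m5 kept although its organoid and 2D library did not match in Y-linked reads. Among the 6 lines other than m12, 5 of the 14 tested genes had the same highest line in both cultures, among them Dsg2 and Jup in m107 and Dsp and Pkp1 in m67. Among all 11677 genes tested, 40.2% had the same highest line in both cultures, so the share among the junction genes was close to that of the table.

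Of the genes of neighbouring systems that reached 10 CPM, 5 of 13 adherens junction genes, 4 of 14 polarity genes, 4 of 18 other tight junction genes, 1 of 7 gap junction genes and 11 of 13 epithelial regulators were highest in 3D m12, beside 17.4% of all genes. The examples that follow are among the genes that were highest or lowest there. Cdh1, which encodes E-cadherin of the adherens junction, stood at 1062 CPM in 3D m12 and at most 208 CPM elsewhere, in 2D m54. Cdh2, which encodes N-cadherin, stood at 0.0371 CPM in 3D m12 and at least 38.6 CPM elsewhere. Epithelial splicing and transcription factors were found with the claudins, namely Esrp1 at 265 CPM in 3D m12 and at most 0.0604 CPM elsewhere, Grhl2 at 75.1 and at most 0.385 CPM, and Elf3 at 232 and at most 6.79 CPM. The polarity genes Crb3, Patj and Llgl2 stood at 52.8, 184 and 245 CPM in 3D m12 and at most 0.269, 18.4 and 29.5 CPM elsewhere. The polarity gene Crb2 went the other way, at 0.686 CPM in 3D m12 and at least 17.2 CPM elsewhere. So did Mpdz of the other tight junction genes, at 0.0742 and at least 58.1 CPM. The part of these genes, and of the mix of cell types, in the junction values of 3D m12 was not tested.

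Between the cultures few of the neighbouring genes differed. Among 13 tested adherens junction genes, Vcl, the actin-linking protein vinculin, was lower in 3D (log2 fold change -1.17, adjusted p = 0.0381 by limma), and none of 13 was higher. Among 12 tested genes of desmosome-linked filaments and their partners, Krt14, a keratin of basal epithelium, was lower in 3D, at 0.0371 to 59.0 CPM in MM organoids and 26.3 to 634 CPM in 2D MM cell lines (log2 fold change -4.78, adjusted p = 0.0251 by limma). Of 13 polarity genes, 18 other tight junction genes, 6 gap junction genes, 4 epithelial regulators and 9 mesenchymal regulators tested, 0 passed. The median log2 fold change was -0.30 over the adherens junction genes, -0.25 over the other tight junction genes and 0.26 over the filament genes, beside 0.062 over all genes tested. Without m12, Cdh3 (P-cadherin) and the tight junction scaffold gene Magi3 were also lower in 3D (log2 fold changes -1.83 and -0.99, adjusted p = 0.0378 and 0.0229 by limma), and Krt15 and Zeb1 were higher (2.99 and 0.72, adjusted p = 0.0359 and 0.0282). Without m5 and m12, limma still called Krt14, Magi3 and Krt15 but not Vcl, Cdh3 or Zeb1 (adjusted p = 0.0899, 0.0505 and 0.0676). With all 7 lines edgeR called neither Vcl nor Krt14 (adjusted p = 0.0592 and 0.0725).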

How the data were processed

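Libraries were those of 7 MM organoids and 7 2D MM cell lines, and 6 samples of normal mesothelial cells were not analysed here. Per the submitters' processing notes and the methods, the authors used FastQC 0.10.0 and Trim Galore 0.6.4 on the reads, STAR 2.7.9a for alignment to GRCm39, HTSeq 0.12.4 for counting and edgeR for their comparison. The authors deposited CPM values, the reads of a gene scaled to its library total. Because 100% of the values were whole multiples of 1 read (tolerance 0.001 reads), the reads were recovered. The deposited table also holds 3 columns of the authors' own comparison (a p-value, a q-value and a ranking), which were not used.

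The members and gene lists were chosen with earlier results of these data known. Named are all members that were tested or reached 10 CPM in a library, except 1 member that is not reported here but is included in counts, and from the other lists those with the smallest p. Tests used limma 3.58.1 (R 4.3.3) on log2(CPM + 1), with line and culture as terms and a variance trend, over the 11677 genes that reached 1 CPM in 7 or more of 14 libraries. P values were adjusted by Benjamini-Hochberg over these genes, two-sided, with a threshold of 0.05. Libraries were paired by the line that their labels give. As a check, the correlation across genes of the deviations of the organoid and the 2D library of a line from their culture means was 0.004 (m5), -0.110 (m12) and, for the remaining lines, 0.317 to 0.703. The closest 2D library was that of m12 for 3D m5 (0.095) and that of m67 for 3D m12 (0.214). The pairing of m5 and m12 therefore rests on the labels alone.

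Alternatives were pseudocounts of 0.1 and 5, no filter, a filter at a mean of 10 CPM, scaling by TMM or by quantiles, no line term, edgeR 4.0.16 and DESeq2 1.42.0 on the recovered reads, each line left out, m5 and m12 left out, and the 5 crocidolite lines from p53+/- mice alone. Both edgeR fits with lines left out were added after seeing the data. Fits with lines left out kept the genes that passed the filter over all 14 libraries. The fits were run on simulated data without differences between lines and without a library that stood apart. That run cannot show how the fits behave with a library such as 3D m12. CPM per kilobase used merged exons of the GENCODE annotation of GRCm39, and promoter windows came from RefSeq (GRCm38.p6), none from chromosome 18, where 9 of the desmosomal genes lie. Tables were handled with Python 3.11.15 and pandas 2.3.3.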

Additional observations from a re-analysis of the deposited data

Results flagged for a closer look

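In 15 of 50 groups of 7 libraries, 1 library lay far from the other 6 on the log2(CPM + 1) scale, judged by its gap to the nearest value over the whole range. Chance flags about 1 in 20 groups, but the count cannot be set against that share, since the genes are not independent and 8 of them were examined only because they reached 10 CPM in 3D m12. Of the 15, 12 were the library 3D m12, with Cldn7 at 338 CPM, Cgn at 296, Tjp3 at 279, Pkp4 at 237, Cldn4 at 197, Ocln at 109, Cldn8 at 59.1, Marveld2 at 37.2, Marveld3 at 37.2, Pkp1 at 30.8, Dsc2 at 29.6 and Cldn23 at 10.5 CPM. The other 3 were in 2D MM cell lines, namely Cldn3 at 45.7 CPM in m107, Pkp3 at 10.8 CPM in m60 and Cldn4 at 0.145 CPM in m67. The last of these rests on 3 reads.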

How the results depend on the processing

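Of 14 tested junction genes, limma called 0 with all lines. The count was 2 with DESeq2 and 0 to 2 when 1 line was left out (2 without m12). It was 1 without m5 and m12, and 1 with edgeR without m12 or without both. Pkp1, which is in both counts of 2, passed the filter only with 3D m12 included. Called over all genes were 383 (245 higher and 138 lower), 63 with no filter, 110 with edgeR, 1886 with DESeq2, 22 to 771 with 1 line left out (22 without m54, 771 without m12), 14 with the 5 crocidolite lines, and 404 and 184 with edgeR without m12 and without m5 and m12. The model with no replicate block for line called 139 genes and 0 junction genes, with Pkp2 at -1.91 (adjusted p = 0.103), and the block changed no call among the 14. With TMM scaling 155 genes were higher and 158 lower, against 118 and 146 after quantile normalization, and the median log2 fold change of all genes was -0.027 and -0.052 in place of 0.062.

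Of 277 fold changes of single junction genes under 20 alternatives, 29 changed sign, none of them past the test. Cldn1 was -0.34 with a pseudocount of 0.1, -0.063 with quantile normalization, -0.25 with edgeR, -0.40 with DESeq2, -0.025 in the 5 crocidolite lines and -0.39 with edgeR without m12. Dsp was -0.016 with quantile normalization, -0.80 with edgeR, -0.76 with DESeq2, and -1.48 and -1.29 with edgeR without m12 and without m5 and m12. Dsg2 was -0.75 and -1.07, and Tjp1 -0.23 and -0.15, in the same pair of edgeR fits. By limma without m5 and m12, Dsp was -1.13, Dsg2 -0.90, Tjp1 -0.061 and Ocln -0.014. With 1 line left out, Cgn ran from -1.05 to 0.067, Cldn1 ran from -0.19 to 0.41, Cldn15 ran from -0.076 to 0.90, Dsg2 ran from -0.73 to 1.11, Dsp ran from -1.22 to 0.92, Pkp4 ran from -0.16 to 0.066 and Tjp1 ran from -0.13 to 0.37. The cause was not tested. Genes at 0 reads are limited to the 0.0556 to 0.269 CPM that 0 reads allow.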
